A study of Homo sapiens with 6 samples.

Results

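The tip of the short arm of chromosome 1, bands 1p36 to 1p35, was examined through all exon bins on chromosome 1 that end at or before position 33496507 of GRCh38. The rule gave 12600 of the 597973 bins in the count tables, an exon bin being a piece of annotated exon cut at every exon boundary of its gene, and these bins held 1032 of 57123 genes. The rule came from the data: it marks the run of neighbouring genes around MUL1 that read lower in MUL1(-/-) than in WT libraries. The size of that difference is therefore given as a description, without a test. RNA was sequenced from HEK293, an established human embryonic kidney line, in 3 WT control libraries and 3 libraries from the same line labelled as MUL1(-/-), a knockout of MUL1. No treatment or time point separated the genotypes, and all cells were grown in the same medium. The sources used here do not say whether the sequenced knockout cells came from 1 clone.

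MUL1 is a mitochondrial E3 ubiquitin ligase of the outer membrane. The bands around it are rich in genes and include several candidate tumour suppressors that are often lost together in neuroblastoma and other tumours, among them CHD5, KIF1B, CAMTA1, TP73, RUNX3 and ARID1A. They also hold ENO1, which encodes the glycolytic enzyme enolase, and genes for ribosomal proteins, splicing factors and mitochondrial proteins, so genes with unrelated functions lie side by side. HEK293 is an aneuploid line whose chromosome content varies between stocks and clones.

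Coding sequence of 5 exon bins is shown, 5′ to 3′ in the sense of the gene, from GENCODE 29 transcripts on GRCh38. They were chosen to mark the target gene, the gene with the most counts in the run, the gene with the highest ratio among those averaging at least 1 CPM, and genes on either side of the place where the ratio ends. In the MUL1 sequence the start codon is in capitals.
MUL1 exon 1, coding part, minus strand, chr1:20507905-20508024: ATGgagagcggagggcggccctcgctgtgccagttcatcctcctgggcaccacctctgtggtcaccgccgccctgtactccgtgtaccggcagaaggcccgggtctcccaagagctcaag
ENO1, minus strand, chr1:8867117-8867250: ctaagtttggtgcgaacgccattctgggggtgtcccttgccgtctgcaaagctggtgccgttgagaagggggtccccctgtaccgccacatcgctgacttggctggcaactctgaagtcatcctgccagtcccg
MFAP2, minus strand, chr1:16977109-16977195: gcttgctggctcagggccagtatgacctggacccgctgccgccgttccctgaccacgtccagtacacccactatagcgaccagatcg
PTPRU, plus strand, chr1:29311643-29311759: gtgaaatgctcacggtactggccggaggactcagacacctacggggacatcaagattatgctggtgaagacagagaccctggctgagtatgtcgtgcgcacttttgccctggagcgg
SDC3, minus strand, chr1:30878676-30878740: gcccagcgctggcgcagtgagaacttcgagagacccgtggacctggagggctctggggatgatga

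Levels are given in CPM, counts scaled to the size of each library. The ENO1 bin read 246, 235 and 233 CPM in WT replicates 1, 2 and 3 and 155, 145 and 134 CPM in the MUL1(-/-) replicates. The PTPRU bin read 3.23, 2.90 and 2.35 CPM in WT and 1.18, 1.21 and 1.13 CPM in MUL1(-/-). In both bins every MUL1(-/-) library lay below every WT library. The SDC3 bin, on the far side of PTPRU, read 0.377, 0.457 and 0.291 CPM in WT against 0.368, 0.372 and 0.414 CPM, with overlap. This bin had the highest log2 ratio of the 8 well-counted SDC3 bins, 7 of which were below 0, with a median of -0.11. The MFAP2 bin read 2.92, 2.66 and 2.78 CPM against 4.18, 3.98 and 5.04 CPM. There every MUL1(-/-) library lay above every WT library. The bin of MUL1 exon 1 read 1.76, 1.62 and 2.13 CPM in WT and 2.26, 2.01 and 2.62 CPM in MUL1(-/-), and the genotypes overlapped.

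Table counts summed over bins ranged from 132849479 to 149317215 over the WT libraries and from 127466071 to 128125459 over those labelled MUL1(-/-), so that 3 counts, taken as the floor of detection, were 0.0210 to 0.0246 CPM. Across the genome, 1760 bins of at most 12 bases had over 1000 counts in a library. A read was thus probably counted in each bin it touches. Sums would then exceed the number of reads and be less precise than their size implies. All 9 HEK293 lineage markers looked at were above 1 CPM in every library, with summed levels of 1371 to 1595 CPM in WT and 1013 to 1188 CPM in MUL1(-/-). VIM carried the largest part of these sums, and single markers moved both ways. PAX2 read 7.83 to 10.7 CPM in WT and 1.93 to 3.35 CPM in MUL1(-/-), and KRT8 304 to 340 against 156 to 177 CPM. NEFM read 1.69 to 1.84 against 3.12 to 3.95 CPM, and CDH2 60.4 to 64.1 against 66.9 to 73.1 CPM. Of 7 markers of blood, liver, fibroblast and endothelium, 5 were below 1 CPM in every library. The others, COL1A1 and DCN, carried nearly all of the summed 21.6 to 26.2 CPM in WT and 18.5 to 22.4 CPM in MUL1(-/-). DCN itself was higher in MUL1(-/-), at 1.14 to 1.22 CPM in WT and 2.61 to 3.42 CPM in MUL1(-/-). The part of these differences in the values below was not tested.

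MUL1 (ENSG00000090432, chr1:20499448-20508161, minus strand, 4 exons) was itself not lower in the libraries labelled MUL1(-/-). It read 15.4, 15.2 and 19.0 CPM in WT and 18.7, 16.7 and 19.2 CPM in MUL1(-/-), with a log2 fold change of 0.14 (SE 0.10). The genotypes overlapped, so the count does not check the labels. A small edit that leaves the transcript in place would not be seen in such counts.

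Of the table's counts, the run held 2.88%, 2.87% and 2.90% in WT replicates 1, 2 and 3 and 2.08%, 2.02% and 2.08% in MUL1(-/-). The share in MUL1(-/-) was 0.716 times that in WT. The rest of chromosome 1 held 6.96%, 6.99% and 7.12% in WT and 7.31%, 7.40% and 7.29% in MUL1(-/-), where every MUL1(-/-) library lay above every WT library. RNA was taken from whole cultures, in which fewer cells with a transcript and less transcript per cell cannot be told apart.

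In all, 600 of the 1032 genes, 376 of them protein-coding, had enough counts to enter the fit across 25125 genes. The other 432 had at most 23 counts in any library, and 101 of them had no count at all. The median log2 fold change of the 600 genes, MUL1(-/-) over WT, was -0.51, with 524 below 0. It was 0.05 over the 1884 tested genes of the rest of chromosome 1 and -0.01 over all tested genes. By edgeR's quasi-likelihood test, with thresholds of 0.05 on the adjusted p and 1 on the size of the log2 fold change, 90 of the 600 were called lower and 5 higher, where 3.87% and 4.23% of all tested genes were called. With the adjusted p alone, 362 were lower and 15 higher against 18.7% and 18.8% of all tested genes. In 397 every MUL1(-/-) library lay below every WT library and in 22 above, against 24.4% and 24.1%. Since the run was chosen on this difference, nothing is read from these counts.

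**Figure D1:**
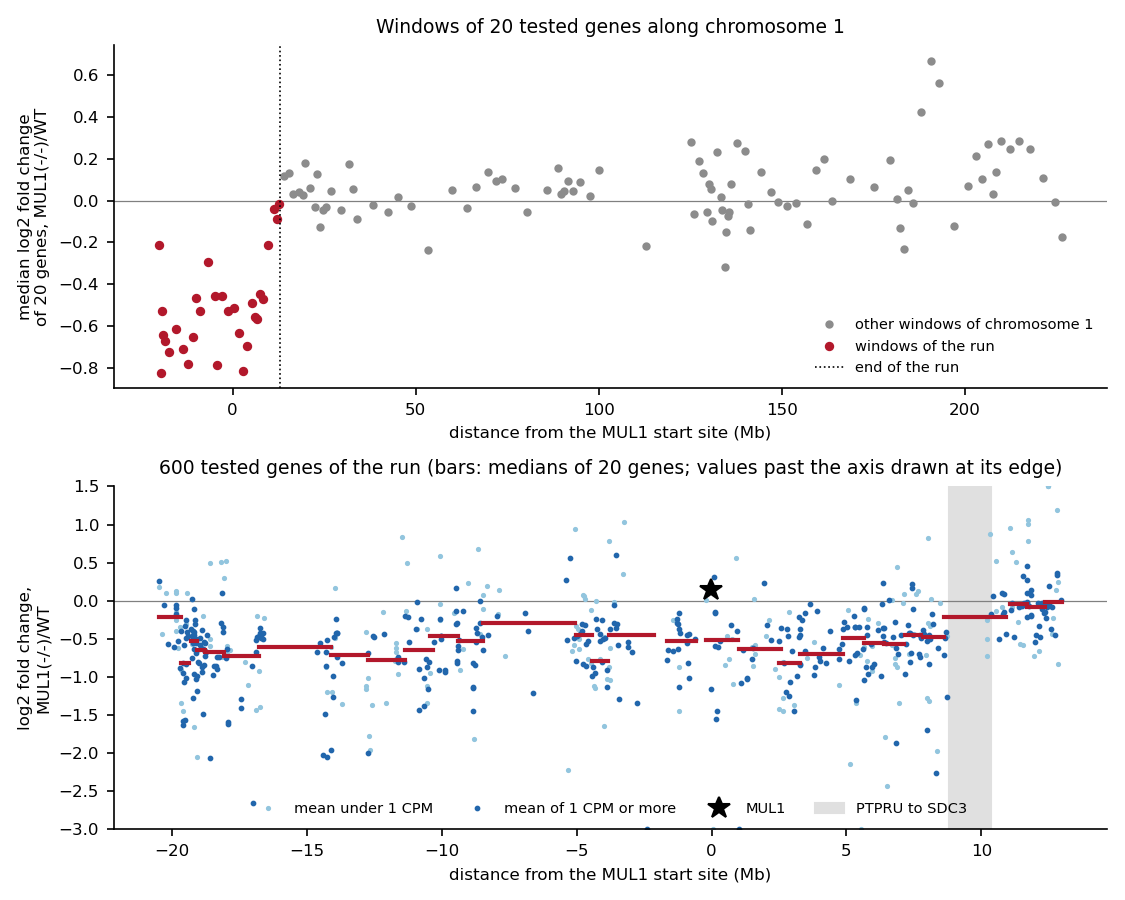
Upper panel, median log2 fold change (MUL1(-/-) over WT) of windows of 20 neighbouring tested genes against the distance in Mb from the MUL1 start site, red for the run and grey for the rest of chromosome 1, with a dotted line at the end of the run. Lower panel, the log2 fold change of each of the 600 tested genes of the run, bars marking window medians and the shaded band the space from PTPRU to SDC3; most windows sit between -0.82 and -0.45 and the last 3 close to 0.

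The shift did not fill the run. Of its 30 windows of 20 neighbouring genes, 24 had a median of -0.4 or less, out of 90 such windows among 1246 in the genome, and the lowest, from LINC01128 to C1orf159, was at -0.82. The first window read -0.21. It begins with WASH7P and other copies shared with many chromosome ends and with mitochondrial-like pseudogenes such as MTATP6P1 and MTCO1P12, whose reads could belong to near-identical copies. Their 14 tested genes, up to MTCO3P12, had a median of -0.07. At the other end, the last 3 windows read -0.04, -0.09 and -0.02, and the window before them, which spans PTPRU, read -0.21. The windows of the rest of chromosome 1 ranged from -0.32 to 0.67.

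A single break fitted to the genes averaging at least 5 CPM fell between PTPRU and SDC3, with medians of -0.52 before it and -0.06 after it. PTPRU, a receptor protein tyrosine phosphatase, ends at 29326813, 4.17 Mb inside the run. SDC3, which encodes a cell surface syndecan, was the next gene above 1 CPM and begins at 30869467, 1.54 Mb farther on. In this space lie 17 genes, of which 9 had no count in any library, 4 were tested and none exceeded 0.826 CPM, so the RNA counts place the end of the shift no more closely than that. Fitted to all tested genes, the break fell inside the same space, between MATN1-AS1 and LAPTM5, with medians of -0.58 and -0.06. The place of the largest rise between neighbouring groups of genes within the run moved with the setting. Over all tested genes the largest was 0.87 before TPRG1L with 10 genes on each side, 0.44 after AGRN with 20 and 0.42 before LAPTM5 with 40. Over genes averaging at least 5 CPM it was 0.47 after NOL9 with 10, 0.43 after SDC3 with 20 and 0.42 after CCDC28B with 40. The positions were found in the same data and are descriptions.

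PTPRU had 103, 95.4 and 69.7 CPM in WT and 37.8, 39.0 and 34.8 CPM in MUL1(-/-), at a log2 fold change of -1.27 (SE 0.11). Before it along the chromosome, MECR, a mitochondrial fatty acid synthesis enzyme, had -0.41 (SE 0.07) and the splicing factor gene SRSF4 -0.49 (SE 0.08). After the space, SDC3 had -0.17 (SE 0.10). SNRNP40, a spliceosome component, read 109, 106 and 116 CPM in WT and 118, 119 and 116 CPM in MUL1(-/-). Every MUL1(-/-) library lay below WT in PTPRU, MECR and SRSF4, and above it, by little, in SNRNP40. Not every gene after the space read like SNRNP40: SERINC2 had -0.44 and ADGRB2 -0.47. Of the 75 tested genes of the run beyond PTPRU, 48 were below 0, and the median was -0.07.

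**Figure D2:**
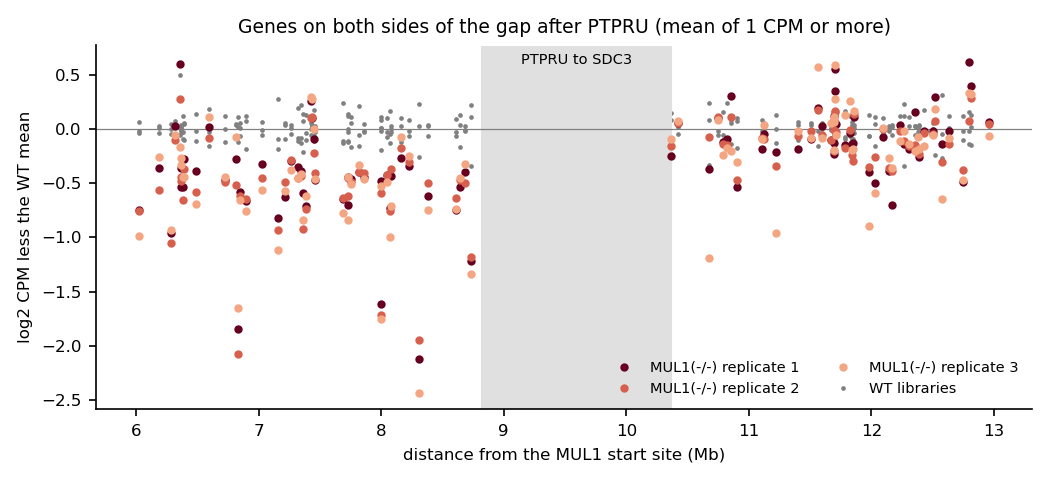
Log2 CPM less the WT mean in each library, for genes of the run with a mean of at least 1 CPM, against the distance in Mb of the gene's start from the MUL1 start site; red shades are the MUL1(-/-) replicates and grey points the WT libraries. To the left of the shaded space from PTPRU to SDC3 most red points lie below the grey ones, and to the right most lie among them.

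From the first pseudogenes to PTPRU, a stretch of 28.7 Mb, 511 genes were tested and their median log2 fold change was -0.58, which is 0.667 of the WT level. Of these, 467 were below 0, 378 had every MUL1(-/-) library below WT, 90 were called lower and 1 higher. Beyond PTPRU the 75 tested genes of the run had a median of -0.07, 48 were below 0, 17 had every MUL1(-/-) library below WT and 13 had every one above. The 17 are 22.7% of the 75, near the 24.4% of all tested genes, and the 13 are 17.3%, against 24.1%. In edgeR 4 of the 75 were called higher, which is 5.33%, against 4.23% of all tested genes. With a minimum of 1 CPM in 3 samples 0 were called higher by edgeR, and 5 were higher at an unadjusted p under 0.05. By edgeR, DESeq2 and limma-voom 0 were called lower, and 14 were lower at an unadjusted p under 0.05 in edgeR. The 90 genes called lower by edgeR all lay up to PTPRU.

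Library by library the picture was alike. Over genes averaging at least 1 CPM, the median of log2 CPM less the WT mean was -0.55, -0.60 and -0.56 in MUL1(-/-) replicates 1, 2 and 3 for the 338 genes up to PTPRU, and 0.04, -0.03 and -0.01 in the WT replicates. For the 47 genes beyond PTPRU it was -0.09, -0.08 and -0.08 in MUL1(-/-), and for 1169 genes of the rest of chromosome 1 it was 0.02, 0.05 and 0.05. The SD of log2 CPM over replicates had a median of 0.123 in WT and 0.143 in MUL1(-/-) for genes of the run and of 0.128 and 0.137 for the rest of the chromosome.

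**Figure D3:**
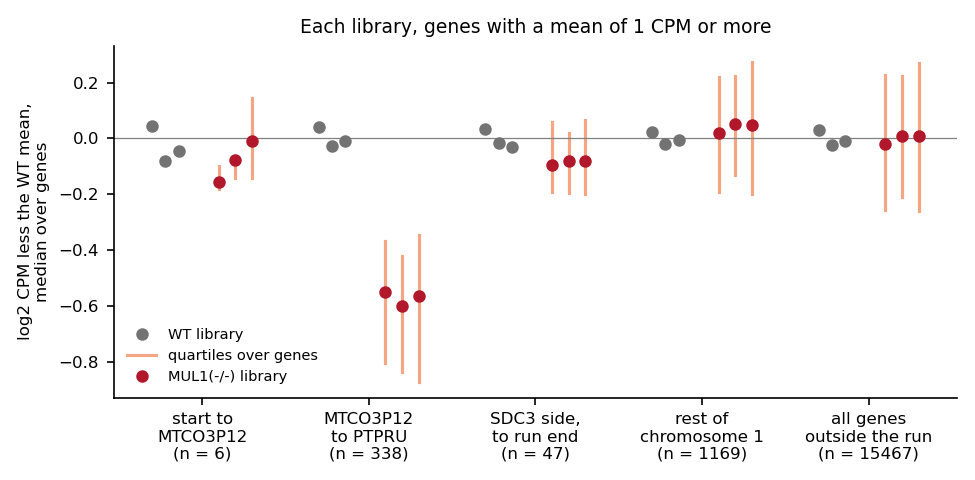
Median over genes of log2 CPM less the WT mean in each library, for 3 stretches of the run, the rest of chromosome 1 and all genes outside the run (genes averaging at least 1 CPM; n gives the genes). Grey points are WT libraries, red points MUL1(-/-) libraries and bars the quartiles over genes; the stretch up to PTPRU lies farthest from 0, at -0.55 to -0.60 in the MUL1(-/-) libraries.

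At position 33496507, where the rule ends the run, the size of the step depended on the genes taken. The last 20 tested genes inside had a median of -0.02 and the first 20 outside 0.12, a step of 0.13. With 10 genes on each side the step was -0.14 and with 40 it was 0.18. Steps at least as large in size stood at 1333 of 2465 places along chromosome 1 with 10 genes on each side, at 1017 of 2445 with 20 and at 412 of 2405 with 40. Over genes averaging at least 5 CPM the step was 0.28, 0.18 and 0.19 with 10, 20 and 40 genes, matched in size at 105 of 1196, 172 of 1176 and 133 of 1136 places. In the MUL1(-/-) replicates, over 20 genes on each side averaging at least 1 CPM, the step at the end of the run was 0.20, 0.39 and 0.29, against -0.03, -0.01 and 0.07 in WT, and across the space after PTPRU it was 0.37, 0.42 and 0.44. It was positive at both places in every MUL1(-/-) library. Just inside the end, the zinc finger gene ZSCAN20 had a log2 fold change of 0.01 (SE 0.10), PHC2-AS1 -0.83 (SE 0.40), RN7SKP16 0.24 (SE 0.44), PHC2 0.33 (SE 0.08) and ENSG00000225313 0.36 (SE 0.17). Among the first 5 genes outside, the pseudogene ENSG00000235907 had -0.25 (SE 0.41), CSMD2 -0.47 (SE 0.33) and ENSG00000230163 0.31 (SE 0.24). Values of either sign stood on both sides, and of those named PHC2 alone differed from 0 by more than 3 times its SE.

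The lower level up to PTPRU was shared by genes of every kind looked at. Its median was -0.53 in 324 protein-coding genes and -0.64 in 187 genes of other types, -0.56 in 255 genes on the plus strand and -0.61 in 256 on the minus strand. By mean level it was -0.62 in genes under 1 CPM, -0.77 from 1 to 5 CPM, -0.55 from 5 to 20 CPM, -0.48 from 20 to 100 CPM and -0.56 in the 60 genes above 100 CPM, all of which were below 0. Genes of the run were richer in G and C than the rest of the chromosome, with a median of 54.4% against 47.1% of exonic bases. Across 5 groups of genes ranked by that content, the median up to PTPRU ran from -0.71 to -0.49 and that of all genes outside the run from -0.03 to 0.03. The run was also denser, with 17.9 tested genes per Mb against 8.74. Of the 362 genes of the run matched to a RefSeq promoter of 300 bases, 74.6% had a ratio of observed to expected CpG of at least 0.6, against 72.5% of 1154 in the rest of the chromosome, 74.9% of 14080 matched tested genes and 49.0% of all 27305 promoters in the table, and their median log2 fold change was -0.50 with such a promoter and -0.52 without.

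Single exon bins showed the same level. Of the 12600 bins 7937 were tested, with a median log2 ratio of -0.54, and 90.7% of them were below 0. The median was -0.60 over 7010 bins up to PTPRU, -0.08 over 880 bins beyond it, 0.04 over 23289 bins of the rest of chromosome 1 and 0.00 over all 330941 tested bins. By edgeR 1220 bins of the run were called lower and 21 higher, against 2.82% and 2.48% of all tested bins, and nothing is read from that either. Bins of a gene can share reads and are not replicates. Of 190 genes up to PTPRU with at least 8 bins of a mean of 50 counts or more, 149 had all such bins below 0, compared with 4 of 28 genes beyond PTPRU and 97 of 669 in the rest of chromosome 1. Within a gene the SD of the bin log2 ratios had a median of 0.133 in the run and 0.125 in the rest of the chromosome, so that the bins of most genes read alike.

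**Figure D4:**
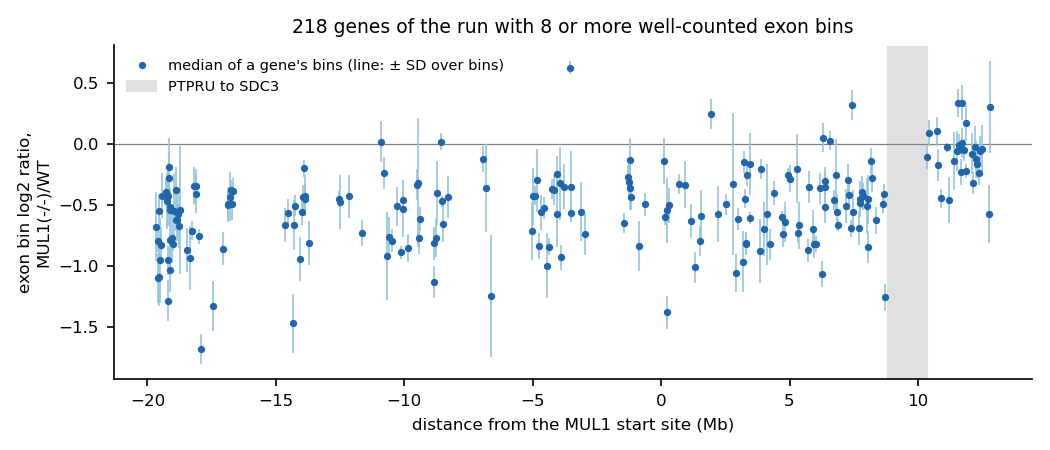
Median log2 ratio of the exon bins of each of 218 genes of the run with at least 8 bins of a mean of 50 counts or more, against the distance in Mb from the MUL1 start site; vertical lines are the SD over the bins of a gene. Most genes to the left of the shaded space lie near -0.5 with short lines. Those to its right run from -0.57 in ZNF362 to 0.34 in TMEM234, more of them below 0 than above.

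The 5 genes with the widest spread between bins had a part that left the level of the rest. HNRNPR, which encodes a pre-mRNA binding protein, had 7 bins at its 3′ end (chr1:23303771-23309787) with log2 ratios from -1.94 to -1.22, whereas its most counted bin read -0.24 (SE 0.08) and the gene -0.37 (SE 0.06). In SRRM1, a splicing coactivator, 8 neighbouring bins (chr1:24646790-24648858) read from -1.83 to -1.39 and the gene -0.62 (SE 0.08). SRM, the spermidine synthase gene, was -0.29 (SE 0.07), but its first 5′ bin of 4 bases read 0.42, 0.18 and 0.30 CPM in WT and 1.43, 0.60 and 0.86 CPM in MUL1(-/-), a log2 ratio of 1.70 (SE 0.27). The 3 bins at the 5′ end of GNB1, a G protein beta subunit, had log2 ratios of 0.55 to 1.30 and the gene -0.45 (SE 0.06). In KAZN, which encodes a protein of cell junctions, the last 3′ bin read 0.35 (SE 0.17) and the gene -1.21 (SE 0.09). All 5 lie up to PTPRU. Over the 218 genes, the 5′-most bin stood 0.04 above the median of its gene in log2 ratio, and in genes outside the run it stood 0.04 above as well.

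Against its neighbours MUL1 stood high. The 10 genes averaging at least 1 CPM on each side of it had a median log2 fold change of -0.48, from -1.55 in KIF17, a kinesin motor gene, to 0.31 in CDA, the cytidine deaminase gene. Of the 338 such genes up to PTPRU, 13 were above 0 and 9 were above MUL1. All 4 exon bins of MUL1 were above 0, with log2 ratios of 0.33 (SE 0.12) for exon 1, whose coding sequence is given above, and 0.12 for each of exons 2, 3 and 4. Exon 1 held 12.1%, 11.1% and 11.6% of the MUL1 counts in WT and 12.5%, 12.5% and 14.4% in MUL1(-/-), and no bin was missing in any library. Next to it CAMK2N1, an inhibitor of CaM kinase II, had -1.17 (SE 0.12), and PINK1, the kinase that starts mitophagy, read 66.1, 59.1 and 54.9 CPM in WT and 54.9, 51.3 and 56.7 CPM in MUL1(-/-) with overlap. PINK1-AS lies on the opposite strand and overlaps PINK1 from 20642657 to 20651511, which is part of the span of PINK1. Reads in bases that both genes share cannot be told apart.

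**Figure D5:**
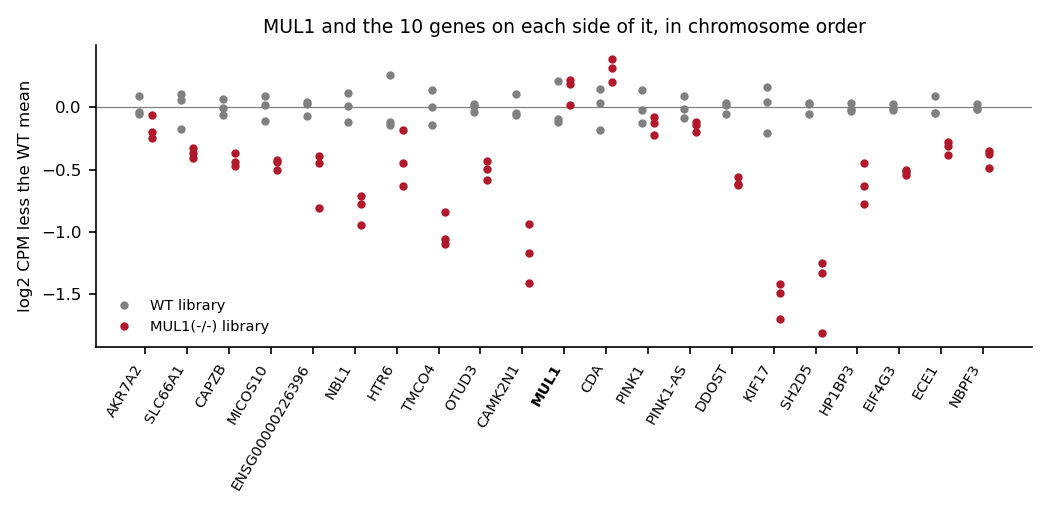
Log2 CPM less the WT mean in each library for MUL1 and the 10 genes averaging at least 1 CPM on each side of it, in chromosome order (no distance scale). Grey points are WT and red points MUL1(-/-) libraries; MUL1 and CDA lie at or above 0 and KIF17 and SH2D5 lowest.

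By role, the first group was of mitochondrial proteins. Of its 18 genes, 15 had an adjusted p under 0.05 with a negative sign, and none passed the fold as well. Such a p and sign were found in 68.9% of the 511 genes tested up to PTPRU and 18.7% of all tested genes. The median log2 fold change was -0.47, beside -0.58 up to PTPRU and -0.01 over all tested genes. Since the run was chosen for being lower, nothing is read from this count about mitochondrial proteins. PARK7, which encodes the redox-sensitive protein DJ-1, read 447, 447 and 464 CPM in WT and 339, 318 and 325 CPM in MUL1(-/-), without overlap. The RNA of MFN2, a mitofusin whose protein MUL1 is known to act on, had -0.48 (SE 0.07). The paper reports more MFN2 protein, not less, in MUL1(-/-) cells.

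All 9 tumour suppressor candidates lie before PTPRU, with a median of -0.47, beside -0.58 over the 511 genes tested up to PTPRU. In all 9 every MUL1(-/-) library lay below every WT library, against 74.0% of those 511 genes and 24.4% of all tested genes. Since the run was chosen for being lower, nothing is read from this count about the candidates as a class. CHD5, a chromatin remodeller of the nervous system, was the lowest of them, at 12.5, 11.8 and 9.92 CPM in WT and 2.85, 2.83 and 2.72 CPM in MUL1(-/-), a log2 fold change of -2.03 (SE 0.11). ARID1A, a subunit of the SWI/SNF remodeller, stood closest to 0, at 130, 128 and 123 CPM against 98.8, 85.9 and 106 CPM, a log2 fold change of -0.39 (SE 0.08). KIF1B, TP73, RUNX3 and CAMTA1 had -0.54, -0.47, -0.40 and -0.82.

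The 15 chromatin and transcription regulators show the break within a list. The 12 up to PTPRU were all below 0, with a median of -0.64, and the 3 beyond it, HDAC1, RBBP4 and PHC2, had a median of -0.06. KDM1A, a histone demethylase, had -0.53 (SE 0.07) and HDAC1, a histone deacetylase, -0.06 (SE 0.09). RBBP4, a histone chaperone, was lower beyond PTPRU too, at -0.34 (SE 0.06), and PHC2, a Polycomb protein, was higher, at 49.9, 46.0 and 41.2 CPM in WT and 60.2, 55.5 and 56.9 CPM in MUL1(-/-). The inhibitor of DNA binding gene ID3 read 82.0, 77.7 and 84.7 CPM in WT and 19.9, 18.6 and 50.7 CPM in MUL1(-/-), where replicate 3 stood apart from the others.

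RNA processing genes split in the same place. The 14 up to PTPRU were all below 0, with a median of -0.49, and the 3 beyond it, SNRNP40 and KHDRBS1 among them, had a median of 0.06. CCNL2, a cyclin tied to splicing, read 385, 378 and 384 CPM in WT and 185, 183 and 195 CPM in MUL1(-/-), and its log2 fold change of -1.03 (SE 0.06) was close to the fold threshold, so that it lost the call with library totals as the scale, with no filter on low counts and without MUL1(-/-) replicate 2. TARDBP, which encodes TDP-43, had -0.30 (SE 0.07), and INTS11, the catalytic subunit of the Integrator complex, -0.46 (SE 0.06).

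Of the 8 translation genes, the 6 up to PTPRU had a median of -0.58 and the 2 beyond it -0.06. The ribosomal protein genes were the lowest, RPL22 at 1026, 1014 and 973 CPM in WT and 367, 374 and 332 CPM in MUL1(-/-), a log2 fold change of -1.49 (SE 0.07), and RPL11 at 1160, 1124 and 1056 CPM against 572, 564 and 550 CPM, a log2 fold change of -0.99 (SE 0.06). Ribosomal protein genes have many processed copies in the genome, and the authors' counting could have split their reads. EIF3I, a subunit of an initiation factor, lies beyond PTPRU and read 523, 492 and 507 CPM in WT and 523, 498 and 489 CPM in MUL1(-/-), with overlap.

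The 20 metabolic enzymes all lie up to PTPRU, 19 of them below 0, with a median of -0.59. ENO1 read 3233, 3045 and 3009 CPM in WT and 1967, 1859 and 1754 CPM in MUL1(-/-), a log2 fold change of -0.73 (SE 0.06). PGD, of the pentose phosphate pathway, had -0.90 (SE 0.07). ALPL, the tissue-nonspecific alkaline phosphatase, read 2.10, 1.99 and 1.73 CPM in WT and 0.269, 0.0719 and 0.0968 CPM in MUL1(-/-). PLOD1, a collagen lysyl hydroxylase that also lies up to PTPRU, averaged 104 ± 4.64 CPM in WT libraries against 104 ± 2.28 CPM in MUL1(-/-) libraries (SD, n = 3), and CDA was above 0.

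Ubiquitin system genes, the class to which MUL1 belongs, had a median of -0.60 over the 16 members listed, without MUL1, which was listed with the mitochondrial proteins and was above 0. The 14 up to PTPRU were all below 0. UBR4, a large ubiquitin ligase, read 413, 411 and 404 CPM in WT and 275, 259 and 243 CPM in MUL1(-/-). The F-box genes FBXO2, FBXO44 and FBXO6, which lie next to each other, had -1.15, -1.14 and -1.45. TRIM63, a muscle ubiquitin ligase, had 14, 15 and 21 counts in WT and 0, 0 and 2 in MUL1(-/-), at or under the floor. RNF19B and TRIM62 beyond PTPRU had -0.08 each. Of 7 TNF receptor genes only TNFRSF14, TNFRSF25, TNFRSF9 and TNFRSF1B had enough counts to be tested. Their median was -0.93, with values from -1.37 to 0.19, and 3 of the 4 were below 0. In 2 of them every MUL1(-/-) library lay below every WT library, against 74.0% of genes tested up to PTPRU and 24.4% of all tested genes. TNFRSF25, a death receptor, averaged 12.7 ± 1.23 CPM in WT libraries against 5.26 ± 0.620 CPM in MUL1(-/-) libraries (SD, n = 3), and TNFRSF9 had -1.37 (SE 0.16).

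Among genes averaging at least 1 CPM, the 10 lowest log2 fold changes all lay up to PTPRU. IGSF21, an immunoglobulin superfamily gene of synapses, read 2.87, 2.27 and 1.14 CPM in WT and 0.190, 0.0879 and 0.0484 CPM in MUL1(-/-), at -4.25 (SE 0.39). After it came ALPL, MEGF6 at -2.66 and the delta opioid receptor gene OPRD1 at -2.26. TMEM52, GPR153, CHD5, the circadian gene PER3, HES2 and SYTL1 had -2.07 to -1.87. None of the 10 overlapped between genotypes. Every MUL1(-/-) library lay below WT in 74.0% of the 511 genes tested up to PTPRU and 24.4% of all tested genes. Since the 10 were picked as the lowest, nothing is read from this count.

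The 10 highest were divided between the stretches. MFAP2, a microfibril component of the extracellular matrix, was the highest and lies up to PTPRU, at 31.1, 27.5 and 28.4 CPM in WT and 42.1, 39.9 and 49.9 CPM in MUL1(-/-), a log2 fold change of 0.60 (SE 0.09). FHAD1 followed at 0.56 (SE 0.12), and CDA and TMEM51-AS1 also lie up to PTPRU. DCDC2B, ENSG00000225313, PHC2, TMEM39B and TMEM234 lie beyond it, with 0.27 to 0.45, and WASH7P lies at the start, with 0.26. The 5 genes called higher, named here outside the rule, after their values were seen, were all under 1 CPM. They were PADI3, which encodes a peptidylarginine deiminase and lies up to PTPRU, and beyond PTPRU MTMR9LP, ENSG00000278966 and the pseudogenes ENSG00000217644 and ENSG00000239670, the last 3 of which are neighbours.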

How the data were processed

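RNA of 3 WT and 3 MUL1(-/-) HEK293 samples was sequenced from SMARTER mRNA-Seq libraries. Files as deposited by the authors hold raw counts of reads for each exon bin, not normalized; the submitters' processing notes name Trimmomatic 0.36, STAR 2.5.2b and GRCh38, and the counting program is not given in the sources used here. Of identifiers that name 1 gene, 96.6% had the start and end of GENCODE 29, the annotation used here. Where an identifier joins several genes, each bin went to the gene whose exons hold it, and bins of several or no genes, with 2.44% of the counts of the run, were left out of gene counts. Counts of the bins of a gene were summed. Chi-square over its degrees of freedom was 2.75 to 9.51 between replicates of the same genotype, above sampling noise, and they were kept as separate samples. Nothing in the labels says that they came from separate cultures, so spreads and p-values may be technical.

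Genes and bins were fitted over the whole table with edgeR 4.0.16 in R 4.3.3 (TMM factors 0.946 to 1.03, filterByExpr, quasi-likelihood test, Benjamini-Hochberg adjustment). DESeq2 1.42.0, limma 3.58.1 (voom) and the other settings of the closing part were alternatives, and Python 3.11.15, numpy 2.4.6, pandas 2.3.3 and matplotlib 3.10.9 made the tables and plots. On simulated data for this comparison, with 200 of 25125 genes changed by a log2 fold change of 2, edgeR recovered 200 with 1 false call. The simulation gave every gene the same dispersion and changed only genes above a minimum level, by more than the fold threshold. It therefore does not show how well smaller shifts, such as that of the run, or noisier genes are recovered. Library values are log2 of CPM plus 0.05. The members, gene lists and tests were chosen with earlier results of these data known, and the place of PTPRU was found in them. Named are MUL1, list members at the ends of their list's range or with the most counts, the 10 lowest and 10 highest genes at 1 CPM or more, 5 genes on each side of the end of the run, and the 5 genes with the widest spread between bins; further members are named as examples. Some results that the rule covers are left out here.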

Additional observations from a re-analysis of the deposited data

How the results depend on the processing

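The sign turned in 2 results: the step at the end of the run, which was -0.14 with 10 genes on each side, and the median beyond PTPRU with library totals. With the replicate number as a block 88 genes of the run were lower and 5 higher, and no call of a named gene changed. The medians were then -0.51 for the run and 0.05 for the rest of the chromosome. Same-numbered libraries deviated together at r = -0.08, 0.16 and 0.10, and differently numbered ones at -0.18 to 0.10. With 3 libraries per genotype these values cannot show whether the numbers pair the samples. With library totals as the scale the medians were -0.44 for the run, 0.12 for the rest of chromosome 1, -0.51 up to PTPRU and 0.0039 beyond it, and those of bins -0.48 and 0.10. With no filter on low counts 9 genes were higher, and the medians were -0.47, 0.090, -0.56 and -0.029 in the same order. A minimum of 1 CPM in 3 samples left 52 genes lower and, by edgeR, 0 higher (9 at an unadjusted p under 0.05), medians of -0.55 up to PTPRU and -0.053 beyond it, and a step of 0.25. Protein-coding genes alone gave 54 lower and 1 higher, -0.48 for the run, -0.53 up to PTPRU and a step of 0.24. The adjusted p alone gave 362 lower and 15 higher. The most counted bin of each gene gave 1 higher. Beyond PTPRU the median was -0.058 with DESeq2 and with RLE factors, -0.13 with the most counted bin, -0.054 with unshared bins and -0.052 with joined identifiers whole. At 5 CPM or more, a minimum chosen after seeing the data, like the split at PTPRU, the medians were -0.48 for the run and -0.52 up to PTPRU, and bins of at least 50 counts had -0.51. Leaving out each replicate gave 84 to 99 genes lower and 3 to 8 higher (3 without WT replicate 2 or MUL1(-/-) replicate 3, 8 without WT replicate 3), and medians of -0.52 to -0.50 for the run, 0.04 to 0.07 for the rest, -0.60 to -0.56 up to PTPRU and -0.083 to -0.027 beyond it. The step ran from 0.06 to 0.20, bins of the run from -0.57 to -0.54 and bins of the rest from 0.04 to 0.05. The share of counts was 0.717 times WT by the most counted bin. Of 50 named genes, CCNL2 lost its call in 3 settings and RPL11 gained one without WT replicate 3. Apart from the settings that drop genes, the causes were not tested. The limits are 3 libraries per genotype, sums in which a read probably counts several times, and a space without expressed genes after PTPRU. RNA counts cannot place the end of the shift within that space, and DNA was not analysed here.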
